A study of Mus musculus with 12 samples.

Results

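The genes described here encode splicing factors and RNA helicases, chosen by their gene names. They were the snRNP core and Lsm families, SF3 and U2AF, PRPF, SRSF, HNRNP, PTBP, RBM, CELF, NOVA, RBFOX, DDX and DHX. Of 10749 listed genes, 90 carried such a name and were above 0 in at least 4 of the 12 libraries. Of these, 87 were protein-coding and 3 were antisense transcripts named after a family gene (Dhx58os, Rbm3os and Rbm46os). Membership rests on the name, so it includes a few genes with other roles, and the rule used no measured value beyond that minimum. The members were, however, chosen with earlier results of these data known. 1 pseudogene with a matching name was left out. 85 members were above 0 in every library. Ddx43 and Rbm46os were just inside the minimum, above 0 in exactly 4 libraries, and no matching name fell below it.

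The RNA came from cells of the dentate gyrus of 8-week-old LPA1-GFP mice, in which a transgene drives green fluorescent protein from the regulatory region of Lpar1, a receptor for lysophosphatidic acid (STOCK Tg(Lpar1-EGFP)GX193Gsat/Mmucd, of FVB/N and Swiss Webster background, rederived into C57BL/6). All 3 groups came from such mice and had no treatment in the labels. Stem libraries were LPA1-GFP+EGFR+Prominin1+ cells, progenitor libraries pooled the GFP-positive cells that lacked EGFR, Prominin1 or both, and niche libraries were LPA1-GFP- cells, with 4 libraries in each group. RNA of 1000 cells was amplified for each library. No label tells if a replicate was 1 animal or a pool, so p-values cover the spread among these libraries only, which may be technical.

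Splicing is carried out by the spliceosome, which assembles anew on each intron from small nuclear ribonucleoproteins (snRNPs). Each snRNP is a small nuclear RNA bound by a ring of Sm or Lsm proteins. SR proteins and hnRNPs bind the transcript and raise or lower the use of nearby splice sites, and DDX and DHX helicases use ATP to rearrange RNA and its proteins. In the developing brain, PTBP1 keeps neuronal exons out of mRNA in neural stem cells, while RBFOX, NOVA and CELF proteins act on exons in neurons.

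Levels are RPKM, which is the read count divided by exon length and library size, divided by a scaling factor of the library, the trimmed mean of M-values (TMM). Fold changes are differences between group means of log2(level + 1), given with their standard error (SE), so they understate changes of low genes. A gene is called higher or lower at an adjusted p under 0.05 in limma, adjusted by the Benjamini-Hochberg method over 8360 tested genes. 88 members passed the filter on low values. The other two were Rbm46os and Ddx43, which had at most 7 and 14 reads in any library. Ddx43 had 0, 0, 12 and 14 reads in stem libraries 1 to 4, 0, 0, 5 and 10 in progenitor libraries and 0 in all 4 niche libraries. A count of 0 allows up to 3 reads, which was 0.131 to 0.395 CPM (read counts scaled by library size without the length) across the libraries.

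The libraries held 7597256 to 22854036 reads. Niche and progenitor replicate 1 stood apart from the other libraries of their groups. Reads of the 2 alpha-globin genes made up 33% of niche replicate 1, 10.9% of niche 2, 2.62% of niche 3 and 6.81% of niche 4, but at most 0.186% of a stem and 0.228% of a progenitor library. Because the deposited values are shares of each library, such reads lower every other gene, and TMM scaling was used against this. The factor of niche 1 was 0.418, and those of the other 11 libraries were 0.82 to 1.25. When values were scaled by library totals instead, the all-gene median moved to 0.58 for stem against niche and 0.62 for progenitor against niche, from 0.09 and 0.15 with TMM.

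The 88 tested members were expressed over a wide range. 9 had a mean level of at least 100 over the 12 libraries, 50 lay between 10 and 100, and 29 lay under 10. All members together took 1.27 to 1.72% of the reads of stem libraries, 1.16 to 1.35% in progenitor libraries and 0.413 to 0.622% in niche. Mitochondrial reads also differed between the groups, at 9.94 to 12% of the reads of stem libraries, 9.26 to 14.1% in progenitor libraries and 15.4 to 25.8% in niche, and their part in the results was not tested. After mitochondrial and alpha-globin reads were set aside, these shares were 1.43 to 1.96% in stem, 1.28 to 1.57% in progenitor libraries and 0.801 to 0.923% in niche. All stem and progenitor libraries were above the 4 niche libraries by both measures. With all 12 libraries, the members varied least within stem, with a median SD on the log2 scale of 0.28. It was 0.45 in progenitor libraries and 0.87 in niche, and 0.15 in progenitor libraries and 0.62 in niche once replicate 1 was left out. Over all tested genes the medians were 0.38, 0.44 and 0.96.

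The members differed most often between stem and niche. Of the 88 members, 22 were higher in stem (25%) and 2 were lower, Rbfox1 and Rbm11. Over all tested genes 10.9% were called higher and 10.7% lower in stem. The median log2 fold change of the members was 0.80, and that of all tested genes was 0.09. In 27 members every stem library exceeded every niche library, and in 0 members every stem library was below, while 12.3% and 10.4% of all tested genes did so. In progenitor against niche, 9 members were higher (10.2%) and 0 lower, with 5.68% of all tested genes higher and 5.78% lower. At an unadjusted p under 0.05, 23 members were higher and 1 was lower in progenitor. The share of all tested genes at that unadjusted cut is not given here, so these 2 counts have no background. The median was 0.62 over the members and 0.15 over all genes. 16 members were higher without overlap and 0 lower, with 8.79% and 6.81% over all genes. In stem against progenitor only Ddx60 was called higher (1.14%) and 0 members lower, with 3.71% of all tested genes called higher and 3.4% lower. At an unadjusted p under 0.05, 6 were higher and 4 lower, again with no share of all genes at that cut. The median was 0.28 over the members and -0.06 over all genes, and 12 members were higher and 5 lower without overlap, with 11.5% and 13.2% over all genes.

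**Figure D1:**
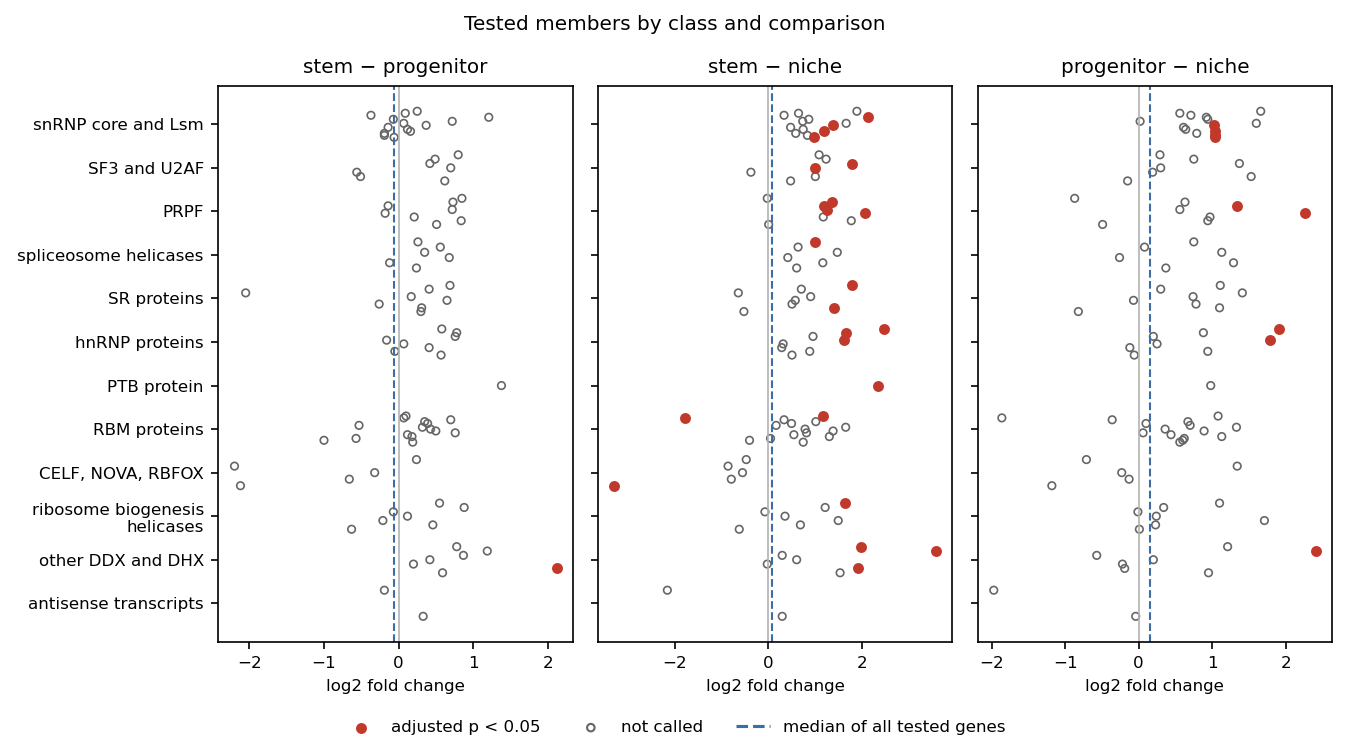
log2 fold change (horizontal axis) of each tested member, by class (vertical axis), for stem minus progenitor, stem minus niche and progenitor minus niche. Each circle is 1 member, filled where the limma adjusted p was under 0.05, and the dashed line is the median of all 8360 tested genes. Most members lie right of that line in the niche comparisons, and the CELF, NOVA and RBFOX genes lie on the left in stem minus niche.

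These are bulk samples, so fewer cells of a type and less RNA per cell cannot be told apart. Markers of other cells moved with the same groups. 6 of 18 listed markers of dividing cells were in the table, and all 6 were called higher in stem than in niche. Their summed level was 581 to 1009 in stem, 167 to 294 in progenitor libraries and 7.65 to 86.3 in niche. 7 of 16 macrophage and microglia markers were in the table, with summed levels of 1969 to 7572 in stem, 116 to 228 in progenitor libraries and 2651 to 4922 in niche. For 6 of 12 markers of mature neurons the sums were 30.6 to 49.7 in stem, 33.2 to 74.3 in progenitor libraries and 146 to 567 in niche, and for 5 of 10 markers of young neurons they were 55.0 to 110 in stem, 903 to 2401 in progenitor libraries and 189 to 436 in niche. Of these markers, Snhg11 of mature neurons was at 0 in 1 library, and no other was at 0 anywhere. The sums of the young neuron list do not stand for each of its markers. In stem against niche 3 of the 5 were called lower, and 1, Eomes, was called higher. Eomes was at 17.1 to 30.9 in stem, 33.2 to 48.2 in progenitor libraries and 0.292 to 1.18 in niche. Its log2 fold change for stem against niche was 3.80 ± 0.39 (SE, limma adjusted p = 6.6e-06). Markers of other glia, of vessels and of choroid plexus were lower in stem than in niche. This held for all 6 tested of 10 astrocyte markers, with sums of 557 to 1141 in stem, 3386 to 4865 in progenitor libraries and 4897 to 6476 in niche. It held for 9 of 10 tested oligodendrocyte lineage markers, with sums of 173 to 647 in stem, 2155 to 6140 in progenitor libraries and 2788 to 5900 in niche. For 5 of 6 tested endothelial and mural markers it held too, and the sums were 27.2 to 219 in stem, 708 to 1705 in progenitor libraries and 674 to 2580 in niche. Of 3 tested choroid plexus markers 2 were lower, Ttr by a log2 fold change of -7.75 and Kl by -2.83, and Clic6, which was at 0 in all 4 stem libraries and niche 1, was not called. Their sums were 13.1 to 69.7 in stem, 77.9 to 480 in progenitor libraries and 4112 to 9369 in niche. In stem against progenitor these lists had 4, 5, 4 and 1 markers called lower, and in progenitor against niche 2, 4, 2 and 2. The part of these cells in the results below was not tested.

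Among the hnRNP genes, Hnrnpa1 was the most abundant and differed most clearly. It encodes hnRNP A1, an abundant nuclear protein that shuttles to the cytoplasm and often favours exon skipping. The gene (ENSMUSG00000046434) lies on GRCm38 chromosome 15, 103240432 to 103246692, plus strand. Its level was 955, 659, 1060 and 992 in stem libraries 1 to 4, 699, 509, 607 and 609 in progenitor libraries and 147, 147, 151 and 196 in niche. Every stem and progenitor library was above every niche library, while stem and progenitor overlapped at stem 2 and progenitor 1. The means were 917 ± 177 in stem, 606 ± 77.7 in progenitor libraries and 161 ± 24.0 in niche (SD, n = 4). On the log2 scale the change was 2.49 ± 0.24 for stem against niche (SE, limma adjusted p = 4.2e-06) and 1.91 ± 0.24 for progenitor against niche (8.5e-05). For stem against progenitor it was 0.58 ± 0.24, which was not called (limma adjusted p = 0.202). That difference was not called without niche 1 (0.61, 0.0596) or without progenitor 1 (0.66, 0.12), but was called without both (0.66, 0.024). How reads shared with its processed pseudogenes were assigned is not given in the sources used here, so its level carries that uncertainty, as does that of Snrpg.

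8 hnRNP genes were tested, and all 8 had a positive fold change for stem against niche, with 3 called. Hnrnpa3, a close relative of hnRNP A1, was at 48.9, 39.2, 54.4 and 51.6 in stem and 3.76, 25.5, 26.0 and 16.0 in niche, and the log2 fold change was 1.67 ± 0.47 (adjusted p = 0.0201). Niche 1 was far below the other 3 niche libraries, and without it the change was 1.03 (0.00699). Hnrnph1 encodes hnRNP H1, which binds runs of G. It was called in stem against niche (1.63 ± 0.48, 0.0258) and in progenitor against niche (1.79 ± 0.48, 0.0263). Its niche values were again lowest in replicate 1, at 3.41, against 26.3, 17.3 and 9.38 in replicates 2 to 4, and the changes without it were 1.07 (0.0331) and 1.20 (0.0266). The other 5 (Hnrnpf, Hnrnph2, Hnrnpl, Hnrnpr and Hnrnpul2) were not called with all 12 libraries, with fold changes of 0.29 to 0.96 for stem against niche. In stem against progenitor, Hnrnpa3 (0.78 ± 0.47, 0.464) and Hnrnpf (0.76 ± 0.34, 0.254) were higher without overlap but not called. Both were called when niche 1 was left out (0.81, 0.0355, and 0.78, 0.0105), and neither when progenitor 1 was (0.70, 0.641, and 0.85, 0.258). Without both of these libraries Hnrnpf was called (0.85, 0.00315) and Hnrnpa3 was not (0.70, 0.0544).

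Ptbp1, the only PTB gene in the table, had its highest levels in stem. It encodes the repressor of neuronal exons named above and lies on chromosome 10, 79854427 to 79864771, plus strand (ENSMUSG00000006498). Its level was 81.7, 60.5, 67.5 and 67.8 in stem, 14.0, 25.8, 37.1 and 32.9 in progenitor libraries and 3.45, 14.6, 20.2 and 22.2 in niche. All 4 stem libraries were above all others, and progenitor and niche overlapped. The means were 69.4 ± 8.87 in stem, 27.4 ± 10.1 in progenitor libraries and 15.1 ± 8.41 in niche (SD, n = 4). The log2 fold change was 2.36 ± 0.49 for stem against niche (SE, adjusted p = 0.00256), and 1.76 without niche 1 (0.000817). For stem against progenitor it was 1.38 ± 0.49 (0.114). That difference was called when niche 1 was left out (1.41, limma adjusted p = 0.0054) and not when progenitor 1 was left out (1.11, 0.294). It was called without both of these libraries (1.11, 0.00516).

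**Figure D2:**
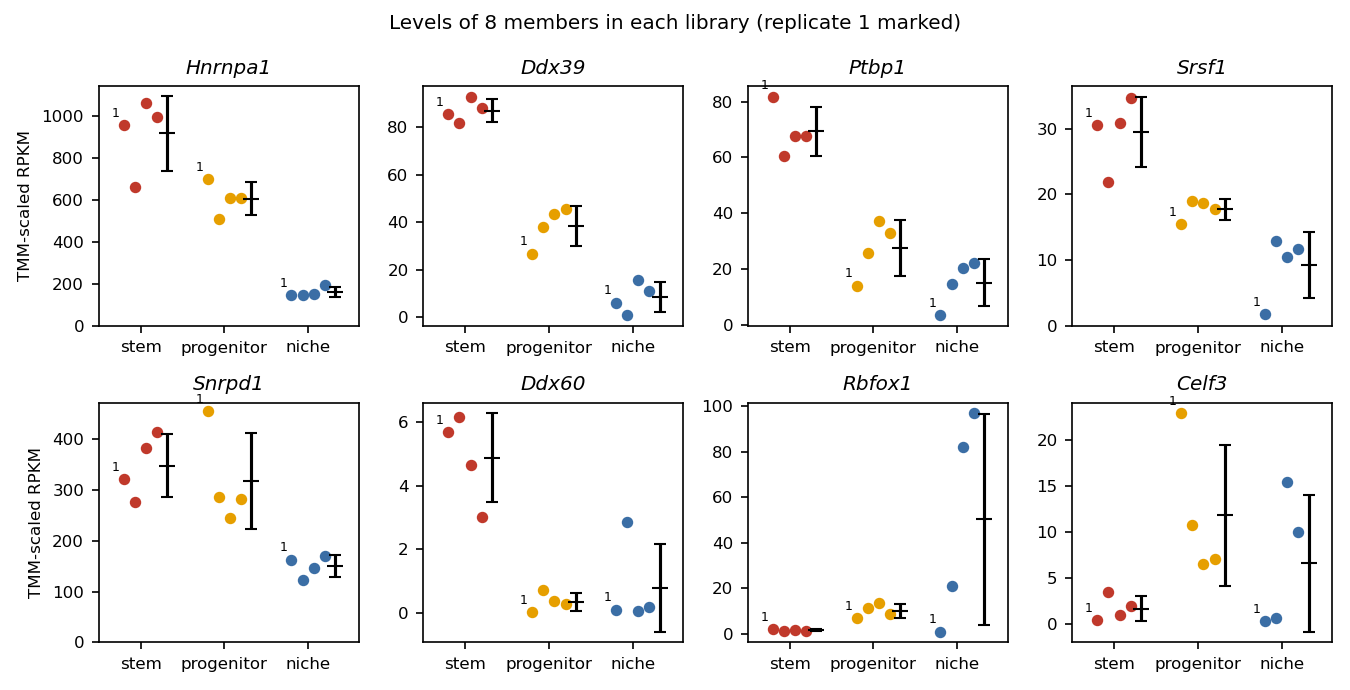
Level of 8 members in each library (TMM-scaled RPKM, vertical axis) for stem, progenitor and niche, with replicates 1 to 4 from left to right, replicate 1 marked, and the mean ± SD of 4 libraries beside them as a bar. Hnrnpa1, Ddx39 and Snrpd1 are lowest in all 4 niche libraries, Ptbp1 and Ddx60 are highest in all 4 stem libraries, and Rbfox1 is high in niche 2, 3 and 4 but not in niche 1.

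Of the 8 SR protein genes, 2 were higher in stem than in niche. Srsf1 encodes a classical SR protein (SF2/ASF) that binds exonic enhancers. It lies on chromosome 11, 88047373 to 88053755, plus strand (ENSMUSG00000018379). Its level was 30.5, 21.9, 30.8 and 34.6 in stem, 15.5, 19.0, 18.7 and 17.7 in progenitor libraries and 1.81, 12.9, 10.4 and 11.7 in niche. The 3 groups did not overlap. On the log2 scale the change was 1.79 ± 0.48 for stem against niche (SE, adjusted p = 0.0144), and 1.19 without niche 1 (0.00301). The other two comparisons were not called (stem against progenitor 0.69 ± 0.48, 0.558; progenitor against niche 1.11 ± 0.48, 0.151). Srsf6, another SR protein, rose by 1.40 ± 0.44 in stem against niche (0.0313). Srsf3, the most abundant of the class, was at 169, 148, 173 and 195 in stem and at 192, 81.7, 50.4 and 83.2 in niche, and was not called (0.91 ± 0.34, 0.0674), with niche 1 as high as stem.

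Srsf12 did not pass the test with all 12 libraries. Its level was 0.0977, 0.0605, 0.369 and 1.53 in stem, 3.77, 5.56, 5.21 and 5.12 in progenitor libraries and 0.0689, 0.0222, 11.6 and 0.739 in niche. In reads these were 2 to 65 in stem, 147 to 415 in progenitor libraries and 1 to 417 in niche. All 4 progenitor libraries were above all 4 stem libraries. The log2 fold change for stem against progenitor was -2.05 ± 0.66 (SE, adjusted p = 0.0801). Without niche 1 it was called (-2.09, 0.0492). It was not called without progenitor 1 (-2.14, 0.139) or without both of these libraries (-2.22, 0.0676).

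The snRNP core and Lsm ring genes include the most abundant members per length. All 14 had a positive log2 fold change for stem against niche (0.34 to 2.13) and for progenitor against niche (0.02 to 1.66). 4 were called in each comparison. Without niche 1 both counts were 8, and without progenitor 1 they were 6 for stem against niche and 1 for progenitor against niche, where only Snrpd1 was called. The shares of all tested genes called higher in these comparisons were 12.7% and 7.78% without niche 1, and 10.9% and 6.41% without progenitor 1. For stem against progenitor the median was 0.08 and 0 of 14 were called. Snrpg encodes the Sm protein G (ENSMUSG00000057278, chromosome 6, 86371304 to 86379328, plus strand) and had the highest level of all members. It was at 995, 1047, 1410 and 1418 in stem, 2105, 1047, 1068 and 1041 in progenitor libraries and 1004, 584, 373 and 628 in niche. Progenitor 1 was the highest library of all, and niche 1 reached the lower stem values. Fold changes on the log2 scale were 0.98 ± 0.32 for stem against niche (SE, adjusted p = 0.0404) and 1.04 ± 0.32 for progenitor against niche (0.0483).

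Snrpd1, the Sm protein D1, was at 321, 276, 383 and 414 in stem, 456, 287, 245 and 283 in progenitor libraries and 163, 122, 147 and 171 in niche. Stem and progenitor libraries overlapped, and all lay above the 4 niche libraries. The log2 fold changes were 1.20 ± 0.26 for stem against niche (adjusted p = 0.00415) and 1.04 ± 0.26 for progenitor against niche (0.0184). Snrpa1, the A′ protein of the U2 snRNP, was at 73.9, 68.6, 89.7 and 82.4 in stem, 79.9, 53.2, 55.9 and 55.1 in progenitor libraries and 37.8, 29.4, 23.1 and 28.3 in niche. It was called in both comparisons as well (1.39 ± 0.28, 0.00217; 1.02 ± 0.28, 0.0279). Snrpd3, the Sm protein D3, was called in progenitor against niche near the threshold (1.04 ± 0.31, 0.0389), and its value in stem against niche was 0.84 ± 0.31 (0.0617). The difference between these was not tested beyond stem against progenitor (-0.19 ± 0.31, 0.865). Lsm2, of the ring around U6 snRNA, was called in stem against niche (2.13 ± 0.72, 0.0458), although niche 1, at 29.6, was above all 4 stem libraries (16.0 to 26.2) and the other niche libraries were at 0.734 to 3.98. Without niche 1 the log2 fold change was 3.02 (0.000135).

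SF3 proteins bind the branch site as part of the U2 snRNP, and U2AF binds the end of the intron. Of 7 tested genes, 2 were called higher in stem than in niche, with a class median of 1.01. Sf3a3 was at 48.0, 44.3, 44.8 and 41.9 in stem and 2.86, 12.9, 16.9 and 31.1 in niche (1.79 ± 0.50, adjusted p = 0.0185), and without niche 1 its change was 1.13 (0.00951). Sf3b4 was at 99.8, 90.0, 79.7 and 107 in stem and 57.8, 39.4, 35.5 and 56.8 in niche (1.0 ± 0.33, 0.0386). Both were higher without overlap. Sf3b6, the most abundant of the class whose protein contacts the branch point adenosine, was at 151, 192, 210 and 196 in stem, 567, 210, 215 and 223 in progenitor libraries and 492, 249, 154 and 178 in niche. Both replicates numbered 1 outside stem were highest, and no comparison was called.

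PRPF genes encode proteins of the tri-snRNP, of the complex around Prpf19 and of early assembly, and 4 of 8 were higher in stem than in niche. Prpf39, a U1 snRNP-associated protein, was at 55.2, 41.9, 65.3 and 67.4 in stem, 75.6, 55.6, 60.9 and 59.2 in progenitor libraries and 16.0, 25.1, 26.7 and 30.9 in niche. Stem and progenitor were alike in range, and both lay above niche. The log2 fold changes were 1.20 ± 0.30 for stem against niche (SE, adjusted p = 0.0105) and 1.34 ± 0.30 for progenitor against niche (0.00951). Prpf40b, a relative of a yeast U1 snRNP protein, was at 5.83, 1.90, 8.29 and 8.22 in stem, 2.30, 10.5, 7.67 and 7.57 in progenitor libraries and 0.223, 0.0716, 2.09 and 0.341 in niche. It was called in stem against niche (2.07 ± 0.55, 0.0142), where stem 2 overlapped with niche 3, and in progenitor against niche (2.26 ± 0.55, 0.0155). Its niche values rest on 4, 4, 93 and 8 reads. Prpf4 and Prpf31, both of the tri-snRNP, were called in stem against niche near the threshold (1.27 ± 0.44, 0.0491, and 1.36 ± 0.46, 0.0456). Prpf8, the large core protein at the spliceosome's active site, was at 22.2 to 29.0 in stem, 14.4 to 19.5 in progenitor libraries and 15.8 to 30.0 in niche, and no comparison was called (stem against niche 0.01 ± 0.34, 0.985).

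The largest difference in favour of stem was in a helicase gene. Ddx39 and Ddx39b encode closely related DEAD box proteins that act in splicing and mRNA export. Ddx39 (ENSMUSG00000005481, chromosome 8, 83715177 to 83726892, plus strand) was at 85.4, 81.6, 92.7 and 88.2 in stem, 26.7, 37.8, 43.5 and 45.7 in progenitor libraries and 6.19, 0.932, 15.8 and 11.0 in niche. The 3 groups did not overlap, with stem highest and niche lowest. The means were 87.0 ± 4.67 in stem, 38.4 ± 8.51 in progenitor libraries and 8.48 ± 6.38 in niche (SD, n = 4). The log2 fold change was 3.60 ± 0.52 for stem against niche (SE, adjusted p = 0.000145), the largest of the 88 members, and 2.41 ± 0.52 for progenitor against niche (0.00721). For stem against progenitor it was 1.19 ± 0.52 (0.241).

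Ddx39b was more abundant and changed less. Its level was 311, 206, 290 and 293 in stem, 241, 202, 215 and 254 in progenitor libraries and 198, 120, 107 and 130 in niche. All stem libraries were above niche, with a log2 fold change of 1.0 ± 0.26 (adjusted p = 0.0125). With median-of-ratios scaling the change was 0.83 and not called (0.107). Progenitor against niche was 0.75 ± 0.26 (0.0791). As a share of the level of both genes, Ddx39 made up 21.5 to 28.4% in stem, 9.96 to 16.8% in progenitor libraries and 0.771 to 12.9% in niche. Stem did not overlap with the others, and progenitor and niche overlapped. This share was chosen after the values were seen and has no test, and reads that match both genes could be split between them in a way that the sources used here do not give. Exons of Ddx39 also overlap those of Adgre5 on the opposite strand, and whether strand was used in counting is not given in the sources used here. The same holds for Ptbp1 with Plppr3, Prpf39 with Fkbp3, Rbm10 with Ndufb11 and Snrpd3 with Gucd1.

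The other 5 helicases of the spliceosome (Ddx42, Ddx46, Dhx8, Dhx16 and Dhx35) were not called in any comparison, with log2 fold changes of 0.42 to 1.48 for stem against niche. Among the 7 helicases of ribosome biogenesis, Ddx27 was called higher in stem than in niche (1.65 ± 0.55, adjusted p = 0.0423). It was at 8.54, 17.1, 9.16 and 13.9 in stem and 0.920, 1.05, 8.99 and 5.77 in niche, so stem 1 overlapped with niche 3. Ddx47, the most abundant of that class, was at 22.0 to 28.8 in stem, 18.1 to 29.1 in progenitor libraries and 16.4 to 34.2 in niche, and no comparison was called.

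Ddx60 was the one member called in stem against progenitor. It encodes a DExD/H box helicase induced by interferon that takes part in antiviral responses. It lies on chromosome 8, 61928087 to 62038244, plus strand (ENSMUSG00000037921). Its level was 5.69, 6.17, 4.64 and 3.00 in stem, 0.0230, 0.701, 0.366 and 0.260 in progenitor libraries and 0.0929, 2.87, 0.0375 and 0.166 in niche. All stem libraries were above all others, and niche 2 stood above the other niche and all progenitor libraries. In reads, these were 284 to 454 in stem, 2 to 87 in progenitor libraries and 3 to 288 in niche. Ddx60 differed by a log2 fold change of 2.12 ± 0.46 for stem against progenitor (SE, adjusted p = 0.00856) and 1.93 ± 0.46 for stem against niche (0.00667), and -0.19 ± 0.46 for progenitor against niche (0.825). Both calls held when any 1 library was left out, with adjusted p up to 0.0368 and 0.0248. The 7 macrophage markers in the table were all called higher in stem than in progenitor as well, and 2 of them were called higher and 2 lower in stem than in niche.

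Ddx11 encodes a DNA helicase of sister chromatid cohesion. It had 152, 97, 492 and 115 reads in stem, 37, 94, 209 and 309 in progenitor libraries and 4, 1, 2 and 3 in niche. Its level was 3.80 ± 2.80 in stem, 1.63 ± 0.885 in progenitor libraries and 0.0888 ± 0.0793 in niche (SD, n = 4), with niche below all other libraries. Ddx11 differed by a log2 fold change of 1.99 ± 0.43 for stem against niche (SE, adjusted p = 0.00376), and 1.21 ± 0.43 for progenitor against niche was not called (0.0839). Ddx3x, Ddx6, Ddx59 and Dhx29, the remaining tested genes of the class, were not called in any comparison.

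**Figure D3:**
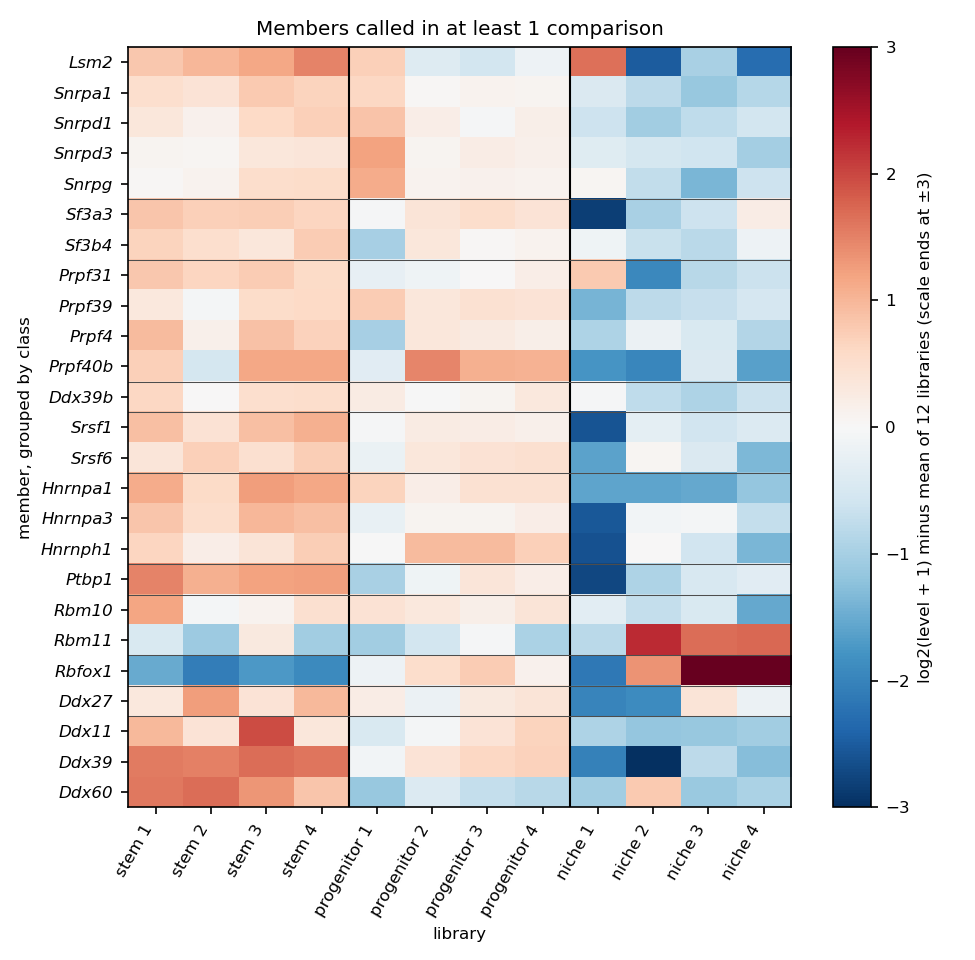
Members called in at least 1 comparison (rows, grouped by class) in the 12 libraries (columns; stem, progenitor, niche). Colour gives log2(level + 1) minus the member's mean over the 12 libraries, with red above and blue below, and the scale ends at ±3. The stem columns are red for most rows, Rbfox1 and Rbm11 are red in niche 2 to 4, and niche 1 departs from the other niche columns in both directions.

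Among the CELF, NOVA and RBFOX genes, Rbfox1 was lower in stem than in niche. All 5 tested genes had a negative log2 fold change in that comparison (-3.30 to -0.47), but the other 4 (Celf1, Celf3, Celf6 and Nova2) were not called (adjusted p = 0.312 to 0.447). Rbfox1 (ENSMUSG00000008658, chromosome 16, 5885355 to 7411526, plus strand) encodes a regulator of neuronal exons that binds GCAUG. Its level was 2.01, 1.04, 1.61 and 1.31 in stem, 6.72, 11.5, 13.6 and 8.47 in progenitor libraries and 0.961, 20.9, 82.1 and 96.8 in niche. All progenitor libraries were above all stem libraries, while niche 1 was below stem and the other 3 niche libraries were the highest. The log2 fold change was -3.30 ± 0.90 for stem against niche (SE, adjusted p = 0.0163), and -4.62 without niche 1 (8.4e-06). For stem against progenitor it was -2.12 ± 0.90 (0.215), and it was called without niche 1 (-2.14, 0.00482). That difference was not called without progenitor 1 (-2.27, 0.308), but was called without both of these libraries (-2.32, 0.00632). For progenitor against niche it was -1.18 ± 0.90 (0.426), and it was called without niche 1 as well (-2.49, 0.00204).

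Celf3, a brain-enriched CELF protein, was at 0.441, 3.50, 0.985 and 1.96 in stem, 22.9, 10.8, 6.57 and 7.05 in progenitor libraries and 0.359 to 15.5 in niche. All progenitor libraries were above all stem libraries, and niche spanned both. The log2 fold change for stem against progenitor was -2.20 ± 0.76 (adjusted p = 0.104), and it was called without niche 1 (-2.21, 0.0407). It was not called without progenitor 1 (-1.84, 0.297) or without both of these libraries (-1.88, 0.107). Celf1, the broadly expressed member of the family, was at 9.38 to 12.2 in stem, 5.77 to 10.8 in progenitor libraries and 10.2 to 21.9 in niche. Nova2 was at 0.528 to 3.11 in stem, 1.70 to 3.84 in progenitor libraries and 1.60 to 10.1 in niche, and Celf6 at 0.0653 to 0.406 in stem, 0 to 0.849 in progenitor libraries and 0 to 4.15 in niche. None of these 3 was called with all 12 libraries. Celf1 was called lower in progenitor than in niche without niche 1 (-0.99, 0.0449), but not without both progenitor 1 and niche 1 (-0.79, 0.0589). In that last fit it was called lower in stem than in niche (-0.72, 0.0486).

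RBM proteins share an RNA recognition motif and little else. Of the 15 tested ones, 13 had a positive log2 fold change for stem against niche, with a class median of 0.75. In that comparison 1 was called higher and 1 lower. Rbm10, a regulator of exon skipping, was higher in stem than in niche at the threshold (1.18 ± 0.41, adjusted p = 0.0499), with 37.5, 15.1, 17.1 and 22.3 in stem and 12.5, 9.25, 11.3 and 4.83 in niche. Rbm11, a splicing regulator found mainly in brain and testis, was at 0.549, 0, 1.58 and 0.0247 in stem, 0.0270, 0.435, 1.08 and 0.104 in progenitor libraries and 0.218, 9.07, 5.81 and 6.01 in niche. Niche 2 to 4 were above all other libraries and niche 1 was not. Rbm11 differed by a log2 fold change of -1.79 ± 0.58 for stem against niche (0.0393), and -2.60 without niche 1 (0.000523). For progenitor against niche it was -1.86 ± 0.58 (0.051), and it was called without niche 1 (-2.66, 0.000774). Rbm8a, of the exon junction complex and the most abundant of the class, was at 80.2 to 112 in stem, 77.4 to 123 in progenitor libraries and 36.0 to 122 in niche. It had no call with all 12 libraries, and was called higher in stem than in niche without niche 1.

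Of the 2 tested antisense transcripts, Dhx58os was at 5.60, 1.11, 4.72 and 0.865 in stem, 18.1, 1.39, 1.61 and 1.11 in progenitor libraries and 108, 55.5, 4.90 and 0.648 in niche. The groups overlapped and no comparison was called. Reads of an antisense transcript and of its partner cannot be told apart where counting does not use strand.

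Several of the members higher in stem than in niche had promoters with CCAAT boxes. RefSeq promoter sequences (GRCm38.p6, 250 bases before to 50 after the start) were found for 72 of the 88 tested members, 18 of the 22 higher in stem than in niche and 5764 of the 8360 tested genes. The letters CCAAT, on either strand, were present in 11 of 18 (61.1%) of those higher in stem, 29 of 72 (40.3%) tested members and 37.9% of all tested genes with a sequence. GGGCGG, the core of the GC box, was in 66.7%, 66.7% and 62.7%, and TATAAA in 5.56%, 5.56% and 6.84%. The E2F letters (TTTCCCGC, TTTCGCGC, TTTGCCGC or TTTGGCGC) were in 5.56%, 4.17% and 3.61%. The core of the interferon-stimulated response element, GAAA followed after any 2 bases by GAAA, was in 1 of 72 members and in 3.07% of all genes, and that member was Ddx60. Such matches describe the letters in this window and are no evidence of binding. The promoters of 4 members are given because they lead the results above: the most abundant hnRNP, the neuronal exon repressor, the classical SR protein and the helicase called in stem against progenitor. Capitals mark every match to the letters above, on either strand. In Hnrnpa1 (chr15:103240147-103240446, plus strand) these are 4 CCAAT and 2 GGGCGG matches. In Ptbp1 (chr10:79854182-79854481, plus strand) there is 1 of each, in Srsf1 (chr11:88047123-88047422, plus strand) 1 of each and 1 E2F match. In Ddx60 (chr8:61927837-61928136, plus strand) the 2 matches to this core begin 53 and 19 bases before the start and have the same letters, beside 1 CCAAT and 1 TATAAA. The TATAAA of Ddx60 lies after the start, from base 4, and so does the GGGCGG match of Ptbp1, from base 32.
Hnrnpa1: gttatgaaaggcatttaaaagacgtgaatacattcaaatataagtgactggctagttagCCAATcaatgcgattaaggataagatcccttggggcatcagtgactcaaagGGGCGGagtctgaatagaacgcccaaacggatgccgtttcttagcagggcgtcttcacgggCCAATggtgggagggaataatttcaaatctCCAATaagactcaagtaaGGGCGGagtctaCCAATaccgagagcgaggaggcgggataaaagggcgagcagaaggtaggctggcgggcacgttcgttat
Ptbp1: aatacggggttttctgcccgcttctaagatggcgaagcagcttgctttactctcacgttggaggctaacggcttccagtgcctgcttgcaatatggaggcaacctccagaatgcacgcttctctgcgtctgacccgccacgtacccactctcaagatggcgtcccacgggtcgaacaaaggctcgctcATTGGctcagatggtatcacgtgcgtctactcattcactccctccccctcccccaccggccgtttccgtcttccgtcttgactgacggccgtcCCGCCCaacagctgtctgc
Srsf1: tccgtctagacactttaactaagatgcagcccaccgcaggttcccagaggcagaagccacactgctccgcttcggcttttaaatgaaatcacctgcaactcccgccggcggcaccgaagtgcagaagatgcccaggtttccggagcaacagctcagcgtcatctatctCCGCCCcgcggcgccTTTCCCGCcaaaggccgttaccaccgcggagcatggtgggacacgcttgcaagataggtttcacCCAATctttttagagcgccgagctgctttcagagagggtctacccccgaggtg
Ddx60: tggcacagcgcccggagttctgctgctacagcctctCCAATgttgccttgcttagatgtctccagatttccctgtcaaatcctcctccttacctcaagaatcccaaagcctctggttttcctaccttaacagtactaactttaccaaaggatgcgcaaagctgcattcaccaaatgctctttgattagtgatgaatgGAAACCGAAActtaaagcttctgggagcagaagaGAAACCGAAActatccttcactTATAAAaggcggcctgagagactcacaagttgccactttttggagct

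Leaving out 1 library at a time showed which calls rest on few libraries. Of the 24 calls in stem against niche, 12 held in all 12 omissions (Ddx11, Ddx39, Ddx39b, Ddx60, Hnrnpa1, Prpf39, Ptbp1, Rbfox1, Sf3a3, Snrpa1, Snrpd1 and Srsf1) and 12 did not. Hnrnpa3 and Prpf40b lost the call without stem 3 or stem 4 (limma adjusted p 0.0504 to 0.057), Hnrnph1 without stem 1, 3 or 4 or niche 4 (0.0554 to 0.0728) and Srsf6 without any 1 stem library or niche 4 (0.0591 to 0.0876). Lsm2, Prpf31 and Rbm10 kept it only where niche 1 was left out, Prpf4 and Snrpg only where progenitor 1 or niche 1 was, Sf3b4 only where progenitor 1, progenitor 2 or niche 1 was, and Ddx27 only where niche 3 or niche 4 was. Rbm11 lost it in 8 of 12 omissions. Across these 8 genes the adjusted p where lost was 0.0501 to 0.175. In progenitor against niche, Ddx39, Hnrnpa1 and Prpf39 kept the call throughout. Hnrnph1 lost it without progenitor 2, 3 or 4 or niche 4 (0.0686 to 0.0837), Prpf40b without progenitor 2, 3 or 4 (0.0519 to 0.0598), Snrpd1 without niche 2 (0.0603) and Snrpa1 without any 1 progenitor library or niche 2, 3 or 4 (0.0565 to 0.0764). Snrpd3 and Snrpg kept it only without niche 1, with an adjusted p of 0.051 to 0.141 where lost.

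Progenitor 1 departed from its group by gene length in the members. Relative to the mean of the other 3 progenitor libraries, progenitor 1 had a median log2 difference of 1.0 in the 13 members with under 1500 bases of exon, 0.11 in the 23 with 1500 to 3000 bases and -0.63 in the 52 with at least 3000. Over all tested genes these medians were 0.54, 0.10 and -0.35. Niche 1 had medians of 0.75, -0.90 and -0.54 in the members, and 0.17, -0.37 and -0.86 over all tested genes. The rank correlation of this difference with length across the 88 members, which share 1 library's depth and base composition, was -0.47 in progenitor 1 and -0.06 in niche 1, and -0.29 and -0.19 over all tested genes. So niche 1 did not fall steadily with length in the members, although 10 of the 13 with under 1500 bases were above the other niche libraries. Over all tested genes its medians did fall with length. With both libraries left out, 40 members were higher and 3 lower in stem against niche (16.3% and 19.9% of all tested genes), 21 higher and 2 lower in progenitor against niche (10.4% and 13.6%) and 6 higher and 1 lower in stem against progenitor (6.52% and 6.96%). 21 of the 22 and all 9 of the calls for higher levels above were among them, and so was Ddx60.

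**Figure D4:**
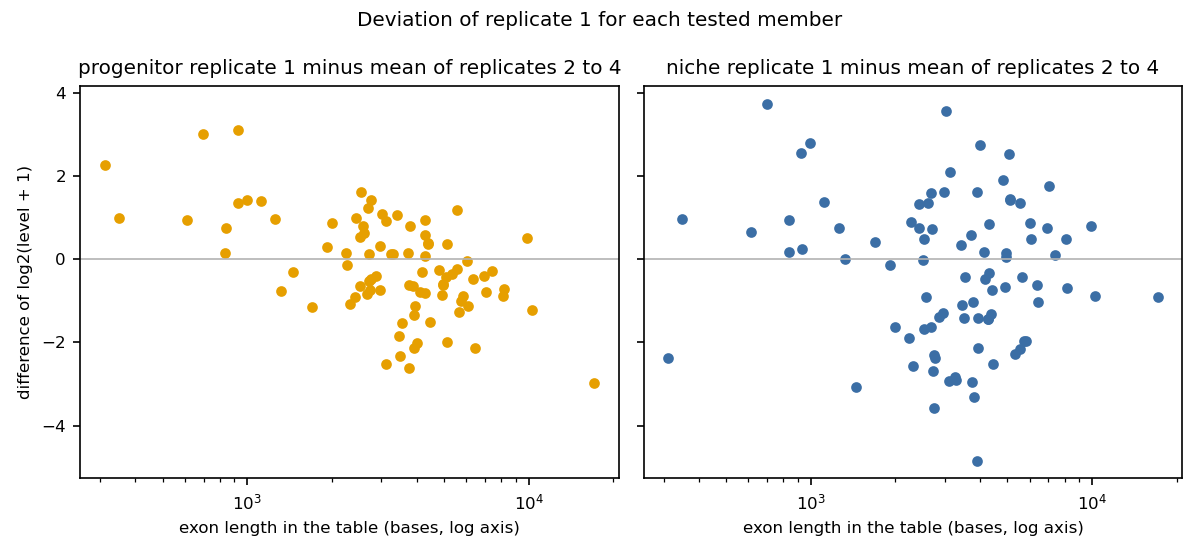
Difference of log2(level + 1) between replicate 1 and the mean of replicates 2 to 4 of its group (vertical axis) against exon length in bases (horizontal log axis), for progenitor on the left and niche on the right. Each point is 1 of 88 tested members. In progenitor, members under 1500 bases lie mostly above 0 and those over 3000 bases mostly below it. In niche, members under 1500 bases also lie mostly above 0, while the longer ones fall on both sides of it.

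Other genes of RNA processing were followed in lists of genes outside these name families. 78 of 165 listed genes were in the table and 76 were tested. In stem against niche 12 were higher and 2 lower, with a median log2 fold change of 0.63. In progenitor against niche 5 were higher and 1 lower (0.52), and in stem against progenitor 1 was higher and 1 lower (0.09). The background shares are those given for each comparison above. Among the 10 tested genes of snRNP assembly, 3 were higher in stem than in niche. Coil, the scaffold of Cajal bodies, where snRNPs mature, was at 4.63, 4.30, 9.10 and 7.23 in stem and 0.0743, 0, 0.780 and 0.341 in niche (2.48 ± 0.58, adjusted p = 0.00608). Its progenitor values were 0.0552, 5.97, 4.89 and 5.65, with progenitor 1 alone near 0. Gemin2, of the SMN complex, was called in stem against niche (1.96 ± 0.55, 0.0188), though not without stem 3 or stem 4 (0.0504 and 0.057), and in progenitor against niche (1.79 ± 0.55, 0.0468), though not in 9 of 12 omissions (0.0639 to 0.115). Without niche 1 these changes were 1.29 (0.00862) and 1.10 (0.0303).

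Of 20 tested genes in the list of other splicing regulators, 6 were higher and 1 was lower in stem than in niche. The median log2 fold change was 0.55, and 10.9% and 10.7% of all tested genes were called higher and lower. The MBNL genes encode muscleblind proteins, which drive exon choice in differentiated cells. Of those listed, Mbnl1 and Mbnl2 were in the table and Mbnl3 was not. Mbnl1 was at 76.8, 103, 45.3 and 46.6 in stem, 23.3, 27.4, 28.2 and 27.8 in progenitor libraries and 35.3, 50.6, 43.6 and 52.2 in niche. It was called higher in stem than in progenitor and in no other comparison (1.23 ± 0.32, 0.0285; stem against niche 0.50 ± 0.32, 0.294), although the call was lost without stem 1 or 2 or any 1 progenitor library (0.0659 to 0.119). Mbnl2 was at 11.0, 11.6, 14.1 and 8.38 in stem, at most 25.9 in progenitor libraries and 80.7, 44.7, 49.4 and 39.5 in niche. The 3 groups did not overlap, and it was lower in stem than in niche (-2.12 ± 0.36, 0.000546) and in progenitor than in niche (-1.43 ± 0.36, 0.0179), while stem against progenitor was not called (-0.69 ± 0.36, 0.357). The call against niche in progenitor was lost without progenitor 2, 3 or 4 (0.052 to 0.0667).

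Msi1, the Musashi protein of neural stem cells, was at 24.5, 18.3, 24.5 and 28.6 in stem, 49.4, 26.9, 22.2 and 27.3 in progenitor libraries and 1.09, 13.5, 11.9 and 9.16 in niche. It was called in both niche comparisons (1.64 ± 0.54, adjusted p = 0.0428; 1.97 ± 0.54, 0.0284), with 0.93 (0.0314) and 1.24 (0.0103) without niche 1, but lost the first in 9 of 12 omissions (0.0533 to 0.107) and the second without any 1 progenitor library (0.0528 to 0.0826). Khdrbs3 (2.01 ± 0.57, 0.0208; lost without stem 3 or 4, 0.0723 and 0.0726), Rnps1 (1.15 ± 0.32, 0.0166; lost without stem 1 or 4, 0.0555 and 0.0605), which was also called in progenitor against niche (1.15 ± 0.32, 0.028; lost without progenitor 2, 3 or 4 or niche 2 or 3, 0.0621 to 0.0879), Upf3a (1.63 ± 0.50, 0.0293; lost without stem 2, 3 or 4 or niche 3 or 4, 0.0522 to 0.108) and Ctnnbl1 (1.18 ± 0.39, 0.0443; kept only without niche 1) were higher in stem than in niche. Eif4a2, a translation initiation helicase outside the DDX names, was at 67.9, 60.6, 61.7 and 55.7 in stem, 169, 154, 150 and 133 in progenitor libraries and 249, 139, 155 and 195 in niche. It was lower in stem than in progenitor (-1.28 ± 0.26, 0.00542) and than in niche (-1.54 ± 0.26, 0.000452), with every stem library below every other library.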

How the data were processed

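RNA of sorted cells was sequenced in 12 libraries, in 3 groups of 4. The deposited table, named as processed counts, holds log2 values, read here as log2(RPKM + 1) of the authors. The genome build was GRCm38 (mm10), per the submitters' processing notes. Neither the aligner nor the counter nor its strand setting is given in the sources used here. Undoing the log gave whole reads for 100% of values above 0 within 1e-05 reads, using the shortest exon length that made every library whole. A count model was not the main test because the deposited values are log2 RPKM.

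Genes with at least 10 reads per median library (0.767 CPM, counts scaled to the library total) in 4 libraries and 15 reads in total were kept. Recovered reads gave TMM factors, and log2(RPKM / factor + 1) was fitted in limma 3.58.1 (R 4.3.3) with 1 mean per group, an intensity trend and robust spread. The fit was tested on simulated reads. Tables were made with pandas 2.3.3 and figures with matplotlib 3.10.9. Reads from amplified RNA carry no molecular identifiers, so limits cover counting error only.

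Members, gene lists and classes were chosen with earlier results of these data known. Genes were named by a rule: up to 8 called members per comparison and direction, all CELF, NOVA, RBFOX and PTBP genes, the highest of each class, and up to 2 called genes per other list. Further called members and some of those called only without niche 1 were added after their values were seen. Replicate numbers come from the titles. Correlations of deviations between same-numbered libraries were -0.128 to 0.206, so the numbers were not taken as pairs. Alternatives covered the pseudocount, filter, scaling, voom, 2-group fits, the replicate block and omitted libraries. The result of 1 gene of the other lists is not reported here.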

Additional observations from a re-analysis of the deposited data

Results flagged for a closer look

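Within each group of 4, the highest or lowest library was set against the other three by Dixon's ratio for the 45 named genes. Of 135 gene and group pairs, 17 passed the critical value, and chance alone flags about 1 in 20. All values are levels in TMM-scaled RPKM.

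Progenitor replicate 1 held 12 of the 17. It was high for Snrpg (2105, others 1041 to 1068), Sf3b6 (567, others 210 to 223), Snrpd3 (140, others 63.6 to 70.5), Rbm8a (123, others 77.4 to 80.9), Snrpa1 (79.9, others 53.2 to 55.9) and Dhx58os (18.1, others 1.11 to 1.61). It was low for Ddx47 (18.1, others 27.0 to 29.1), Mbnl1 (23.3, others 27.4 to 28.2), Khdrbs3 (12.4, others 23.2 to 24.3), Prpf4 (4.00, others 10.4 to 11.7), Nova2 (1.70, others 3.60 to 3.84) and Coil (0.0552, others 4.89 to 5.97).

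In niche, Srsf1 was low in replicate 1 (1.81, others 10.4 to 12.9), Ddx60 was high in replicate 2 (2.87, others 0.0375 to 0.166) and Hnrnpa1 was high in replicate 4 (196, others 147 to 151). In stem, replicate 2 was low for Ddx39b (206, others 290 to 311) and Rbm8a (80.2, others 108 to 112).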

How the results depend on the processing

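No named gene changed direction with a call under any alternative run. For the 45 named genes, 2610 values kept their side of the threshold, 270 lost a call and 73 gained one. The counts of called members moved more. With all 12 libraries they were 1 higher and 0 lower in stem against progenitor, 22 and 2 in stem against niche, and 9 and 0 in progenitor against niche. Scaling by library totals gave 2 higher in stem against progenitor, 46 higher and 1 lower in stem against niche and 31 higher in progenitor against niche, with 24.1% and 18.2% of all tested genes called higher in these 2 niche comparisons. voom on recovered reads gave 2 higher in stem against progenitor. Fits of only 2 groups, with fewer libraries behind the spread, gave 10 higher and 4 lower, 12 and 1, and 4 higher in the same order. The shares of all tested genes in these fits were 8.64% higher and 8.92% lower in stem against progenitor, 8.51% and 8.35% in stem against niche, and 3.09% and 3.66% in progenitor against niche, so the members called in stem against progenitor were near it for higher and under it for lower levels. Without progenitor 1 and niche 1 together the counts were 6 higher and 1 lower in stem against progenitor, 40 higher in stem against niche, and 21 higher and 2 lower in progenitor against niche. A pseudocount of 0.1 RPKM and no filter each left 1 lower in stem against niche. A pseudocount of 4 RPKM, a stricter filter and the median of ratios each gave 1 lower in progenitor against niche, and the last gave 5 higher there and 15 higher in stem against niche, where Ddx39b, Lsm2, Prpf31, Prpf4, Rbm10, Sf3b4 and Snrpg lost the call. It moved the all-gene medians to -0.02 in stem against niche and 0.00 in progenitor against niche.

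Leaving out 1 library at a time gave 1 to 4 higher and 0 to 3 lower in stem against progenitor, 11 to 29 higher and 1 to 2 lower in stem against niche, and 4 to 18 higher and 0 to 3 lower in progenitor against niche. The upper ends of these ranges for higher calls came without niche 1, and the lowest count of 11 came without stem 3 and without stem 4. Shares of all tested genes moved as well. Without niche 1, 6.45% were higher and 6.65% lower in stem against progenitor, and the members (4 and 3 of 88) were under both. The shares were 12.7% and 17.1% in stem against niche and 7.78% and 11.9% in progenitor against niche. Without stem 3 or stem 4, 7.59% or 7.57% were higher in stem against niche. All 3 groups share 1 estimate of the spread, so niche 1 also enters stem against progenitor. With the replicate block, 1 member was higher in stem against progenitor, 22 were higher in stem against niche (19 of them shared with the unblocked fit) and 9 were higher and 1 lower in progenitor against niche. The numbers did not pair the libraries by their deviations. Few reads limit Ddx43, Rbm46os, Celf6, the niche levels of Ddx11 and Prpf40b, and the lowest libraries of Ddx60, Srsf12 and Rbm11.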
